A study of Mus musculus with 12 samples.

Results

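The genes described here are those that make cholesterol from acetyl-CoA, those that control SREBP2, the transcription factor that turns this pathway on, and a few that move or store the product. The list named 31 members, 20 of synthesis, 6 of control and 5 of sterol handling. A member was measured by its brightest probe set annotated to that gene only, which gave 28 members of 18193 genes with such a probe set. Acat2, Soat1 and Soat2 had none in the annotation used and are not analysed here. All 28 members could be tested in both tissues.

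Cholesterol synthesis runs from acetyl-CoA through mevalonate and the isoprenoids to squalene, which is closed to the first sterol and trimmed to cholesterol by a chain of oxidations and reductions in the endoplasmic reticulum. The precursor of SREBP2, encoded by Srebf2, sits in that membrane bound to its escort Scap. When sterols are plentiful, Insig1 and Insig2 hold the pair there, and when sterols are scarce the pair moves to the Golgi, where the proteases of Mbtps1 and Mbtps2 release the active factor. Most enzymes of the pathway, Insig1 and Srebf2 itself are known targets of SREBP2, while Insig2 has a separate, SREBP-independent control in liver.

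Liver RNA came from adult C57BL/6J mice that were WT, lacked Dscr-1 (Dscr-1 null), lacked ApoE (ApoE null) or lacked both (double null), with 2 arrays per genotype and 8 in all, and the labels give a high-fat diet for 12 weeks for all of them, whereas the text of the study gives normal chow for the liver arrays. Dscr-1, encoded by Rcan1, is a feedback inhibitor of calcineurin, and ApoE is the apolipoprotein by which lipoprotein remnants are cleared. Aortic endothelial cells came from adult ApoE null and double null mice of the same strain and were kept in culture for several days before RNA was taken, with 2 arrays per genotype, so both of these groups lacked ApoE and differed in Dscr-1. Both null alleles are whole-body mutations, and the sources used here give no number of mice behind an aortic culture.

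Liver levels are given as linear signals, scaled by the authors to an average of 100 per array, and differences as log2(signal + 16), which understates changes of dim genes. Aortic levels are log2 values as deposited. A difference was called at an adjusted p (Benjamini-Hochberg, limma) under 0.05. Levels were not compared between probe sets of different genes.

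Apoe gave liver signals of 19937 to 21510 on the 4 arrays of WT and Dscr-1 null mice and of 79.8 to 305 on the 4 arrays that lacked ApoE. No source used here says whether the Rcan1 probe sets fall inside the deletion, so the Dscr-1 genotype rests on the labels. Of the 9 hepatocyte markers with a probe set, 8 or 9 exceeded the array median on every liver array, and all 12 endothelial markers did so on every aortic array. In liver, replicate 1 of ApoE null stood apart, with a mean correlation with the other arrays of 0.839 against 0.875 to 0.885, and in aortic cells replicate 2 of double null was the lowest of the 4 arrays for 43.5% of all genes tested.

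To show what these genes share in sequence, the window from 250 bases before to 50 bases after the transcription start (RefSeq, GRCm38.p6) was searched on both strands. A window was found for 25 of the 31 members, and Fdps, Fdft1, Sqle, Stard4, Npc1 and Soat2 had none in the table. Some members had more than 1 window, and a member was counted if any of its windows held a match. The other shares are per window, so member counts and shares are not like for like. The core of the sterol regulatory element that SREBPs bind, TCACNCCAC, was found for 1 member, Hmgcs1, and in 1.24% of 32851 windows in all. CCAAT, the box of the partner factor NF-Y, was found for 21 of the 25 members. It was in 37.4% of all windows, and also in 37.4% of the 12069 windows of genes tested in aortic cells. GGGCGG, the box of the partner factor Sp1, was found for 22 members. It was in 35.7% of all windows and in 62.8% of those of genes tested in aortic cells. A match is a description and not a shown site, and elements outside the window or with other letters were not searched.

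Shown are the 250 bases before the start, 5′ to 3′ on the strand of the gene, with the element core and CCAAT (read as ATTGG on the other strand) in capitals. Hmgcs1 is shown because it held the element core, from position -137 to -129 before the start. Srebf2, Insig1 and Cyp51 were picked after their values were seen, as the factor itself, its feedback target and an enzyme with a lower aortic level, each with 1 CCAAT box.
Hmgcs1, chr13:119690101-119690350, strand plus: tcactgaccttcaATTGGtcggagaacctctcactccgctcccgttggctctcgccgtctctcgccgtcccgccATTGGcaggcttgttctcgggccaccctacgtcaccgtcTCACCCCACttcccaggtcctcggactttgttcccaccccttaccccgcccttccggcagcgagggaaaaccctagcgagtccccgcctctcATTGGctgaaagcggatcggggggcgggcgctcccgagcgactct
Srebf2, chr15:82147019-82147268, strand plus: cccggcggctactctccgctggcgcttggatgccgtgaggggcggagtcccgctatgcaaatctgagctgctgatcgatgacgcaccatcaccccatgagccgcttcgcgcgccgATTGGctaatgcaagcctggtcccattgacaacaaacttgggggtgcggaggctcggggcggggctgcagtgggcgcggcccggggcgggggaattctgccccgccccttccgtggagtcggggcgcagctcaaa
Insig1, chr5:28071162-28071411, strand plus: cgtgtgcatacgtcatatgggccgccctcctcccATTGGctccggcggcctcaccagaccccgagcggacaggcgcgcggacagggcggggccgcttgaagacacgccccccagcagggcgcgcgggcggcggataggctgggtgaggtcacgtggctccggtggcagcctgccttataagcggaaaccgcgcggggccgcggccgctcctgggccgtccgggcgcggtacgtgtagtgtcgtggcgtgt
Cyp51, chr5:4104698-4104947, strand minus: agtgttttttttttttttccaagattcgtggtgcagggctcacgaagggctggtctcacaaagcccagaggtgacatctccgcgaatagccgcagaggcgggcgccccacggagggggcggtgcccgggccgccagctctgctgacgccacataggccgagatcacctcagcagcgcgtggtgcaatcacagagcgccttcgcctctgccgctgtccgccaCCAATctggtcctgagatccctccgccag

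In aortic endothelial cells the question was what loss of Dscr-1 does when ApoE is already lost. The synthesis genes lay lower in double null cells along nearly the whole pathway. Of 19 synthesis genes, 18 had a log2 difference below 0 (52% of all genes tested), and their median difference was -0.41 against -0.01 for all 11647 genes. For 15 of the 19, both double null arrays lay below both ApoE null arrays (14.3% of all genes). No member passed the threshold (0.0172% of all genes passed), and 6 members had an unadjusted p under 0.05, all lower (2.28% of all genes were lower at that level).

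**Figure D1:**
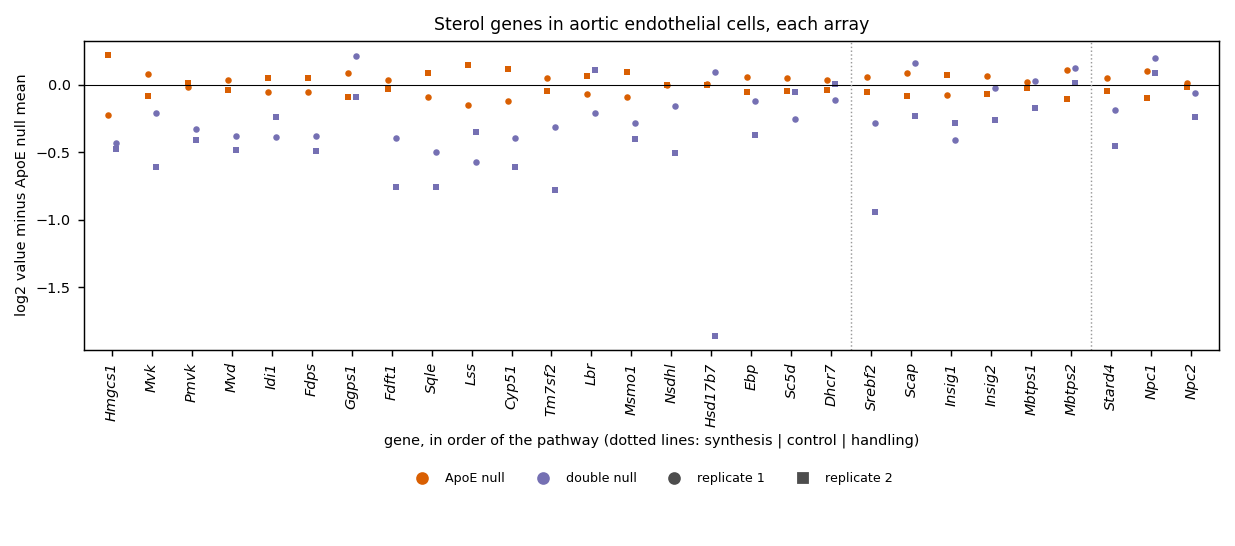
Log2 value of each of the 28 members on each of the 4 aortic arrays, minus the mean of the ApoE null arrays of that gene, with genes in order of the pathway, circles for replicate 1 and squares for replicate 2. Most double null points from Hmgcs1 to Ebp lie below 0, those of Ggps1, Lbr and Dhcr7 lie near it, and Hsd17b7 is low in double null replicate 2 alone.

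Sqle, the epoxidase that commits squalene to sterols, had log2 values of 9.42 and 9.60 in ApoE null cells and of 9.01 and 8.76 in double null cells. The groups did not overlap, and the difference was -0.63 (0.647-fold, standard error 0.17, 95% confidence interval -1.08 to -0.18). By limma its unadjusted p was the lowest of the members, and its adjusted p was 0.877. Fdft1, which makes squalene from farnesyl pyrophosphate, gave 10.45 and 10.39 in ApoE null cells and 10.02 and 9.67 in double null cells. The difference was -0.58 (standard error 0.18), and a second probe set gave -0.64. Fdps, the synthase of farnesyl pyrophosphate, gave 10.75 and 10.85 against 10.42 and 10.31, a difference of -0.43 with a standard error of 0.15.

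The enzymes that handle mevalonate were also lower without overlap. Mvd, which decarboxylates mevalonate pyrophosphate to the first isoprenoid, gave 7.80 and 7.73 in ApoE null cells and 7.39 and 7.28 in double null cells, a difference of -0.43 (standard error 0.15), and its other probe set gave -0.67. Hmgcs1, the synthase of HMG-CoA whose upstream sequence is shown above, gave 10.74 and 11.19 against 10.53 and 10.49, a difference of -0.46 with an unadjusted p of 0.0743 by limma. Both double null arrays lay below both ApoE null arrays for the kinases Mvk and Pmvk as well, with differences of -0.41 and -0.37. Idi1, the isomerase of the isoprenoid units, gave 10.18 and 10.29 against 9.85 and 9.997, a difference of -0.31.

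After squalene, the lanosterol steps were lower without overlap and Lbr and the last reductase were not. Cyp51, the lanosterol demethylase, gave 8.79 and 9.03 in ApoE null cells and 8.51 and 8.30 in double null cells, a difference of -0.50 (0.705-fold, standard error 0.18). Tm7sf2, one of the pair of sterol C14 reductases, gave 6.79 and 6.69 against 6.43 and 5.96, a difference of -0.55 (standard error 0.21) that was -0.31 without double null replicate 2. Lss, the cyclase that closes lanosterol, gave 8.08 and 8.38 against 7.66 and 7.88, a difference of -0.46. Lbr, the other C14 reductase and also a protein of the nuclear envelope, gave 10.23 and 10.37 against 10.09 and 10.41, so its groups overlapped around a difference of -0.05. Msmo1, Nsdhl and Ebp, which remove methyl groups and shift the double bond, were lower without overlap by 0.34, 0.33 and 0.25 on the log2 scale.

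Besides Lbr, the groups overlapped for Ggps1, Hsd17b7 and Dhcr7. Ggps1, which leaves the sterol route for protein prenylation, was the synthesis gene with a positive difference, at 7.38 and 7.20 in ApoE null cells and 7.51 and 7.20 in double null cells. Its brightest probe set gave 0.06 and its 4 probe sets ranged from -0.05 to 0.31. Dhcr7, the last reductase, gave 7.82 and 7.75 against 7.67 and 7.80, a difference of -0.05 within the spread of the arrays. Sc5d, the desaturase before it, gave 9.99 and 9.90 against 9.70 and 9.89, a difference of -0.15 without overlap. Hsd17b7, the sterol ketoreductase, had the lowest difference of the list, -0.88, with a standard error of 0.64. It read 9.29 in both ApoE null cultures, 9.38 in double null replicate 1 and 7.43 in replicate 2, so that value rested on 1 array, as it did for its other probe sets at -1.05 and -0.96.

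Among the control genes, Srebf2 gave 8.86 and 8.74 in ApoE null cells and 8.52 and 7.86 in double null cells. The groups did not overlap, and the difference was -0.61 (0.654-fold, standard error 0.26, limma unadjusted p = 0.0625), with -0.27 by its other probe set. Insig1, a target of SREBP2 and its brake, gave 10.49 and 10.64 against 10.16 and 10.28, a difference of -0.35 without overlap. The genes of the transport and cleavage machinery gave differences near 0, with -0.04 for Scap, -0.14 for Insig2, -0.07 for Mbtps1 and 0.07 for Mbtps2. Over the 6 control genes, 5 were below 0 and the median was -0.11.

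Of the handling genes, Stard4, a cytosolic sterol carrier and known target of SREBP2, gave 9.19 and 9.10 against 8.96 and 8.69, a difference of -0.32 without overlap. Npc1 and Npc2 export sterol from lysosomes. Npc1 was 0.14 higher and Npc2 was 0.15 lower on the log2 scale, and Npc2 lay without overlap at 12.95 and 12.91 against 12.87 and 12.69. Over all 28 members, 25 were below 0, 19 were lower without overlap and 0 were higher without overlap, where 16.8% of all genes were higher in that way.

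The source names place the replicates of one number in the same run. In run 1 the median of the synthesis genes was -0.29 with 17 of 19 below 0, and in run 2 it was -0.50 with 17 of 19 below 0. In both runs 15 of 19 were lower, as were 29.9% of all genes. Fdft1 was -0.43 in run 1 and -0.72 in run 2, Sqle -0.41 and -0.85, Mvd -0.41 and -0.45, and Srebf2 -0.34 and -0.89. Without double null replicate 1, 7 members passed (Mvk, Fdft1, Sqle, Cyp51, Tm7sf2, Hsd17b7 and Srebf2, of 28 tested) and so did 17.1% of all genes. That fit compares the 1 remaining double null array with ApoE null arrays and assumes that it varies as they do, and 0 members passed without double null replicate 2, where 4.12% of all genes did, or without either ApoE null array, where 0% did.

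**Figure D2:**
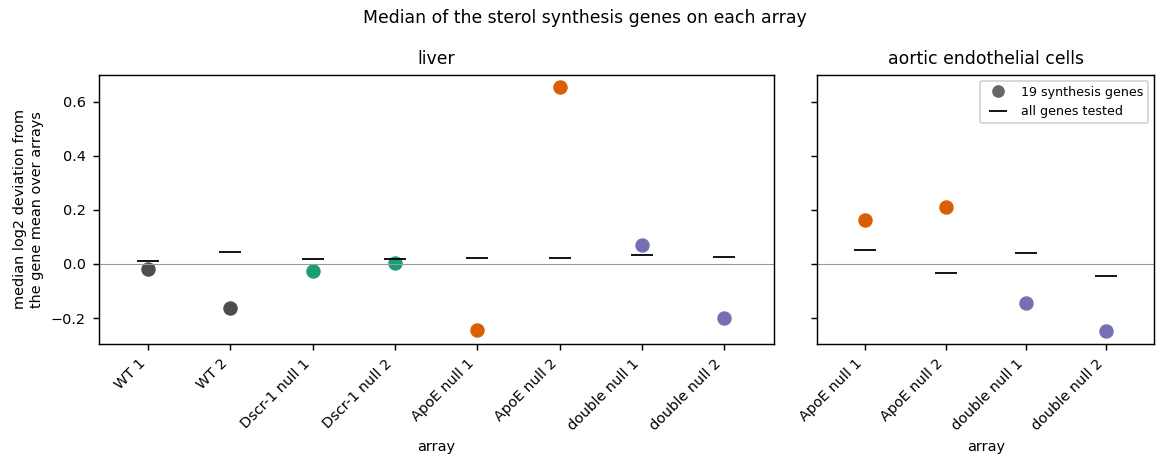
Median log2 deviation of the 19 synthesis genes from each gene's mean over the arrays of its tissue (circles, coloured by genotype), beside the same median over all genes tested (dashes), for the 8 liver and 4 aortic arrays. The aortic circles lie at 0.16 and 0.21 in ApoE null cells and at -0.14 and -0.25 in double null cells, and the highest liver circle, 0.65, is that of ApoE null replicate 2.

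Markers of other cells moved with the same comparison. Lyz2, the lysozyme of macrophages, read 5.33 and 5.48 in ApoE null cultures and 7.46 and 9.47 in double null cultures, and Csf1r, their growth factor receptor, read 5.54 and 5.51 against 6.72 and 7.004. Of the 16 macrophage markers, 8 were tested and 6 were above 0, with a median difference of 0.68. The summed linear signal of all 16 was 3590 and 3720 in ApoE null cultures and 4043 and 5678 in double null cultures. The defining markers Adgre1, C1qa, C1qb, C1qc and Ptprc read 2.66 to 3.53 on all 4 arrays, below the array medians of 4.45 to 4.499.

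Smooth muscle genes and some fibroblast genes were high in double null replicate 1. The fibroblast sum was higher on both double null arrays, in replicate 2 through Dcn alone. Col1a2 read 8.80 and 8.47 in ApoE null cultures, 10.87 in double null replicate 1 and 7.63 in replicate 2. The summed signal of the 7 fibroblast markers was 5024 and 5177 for ApoE null against 10844 and 9310 for double null cultures. Within run 2, Dcn differed by 1.07 on the log2 scale. Every other fibroblast marker was lower there, from -0.001 for Col1a1 to -2.01 for Col3a1. Their median log2 value on double null replicate 2 was 6.54, below the 7.24 and 7.04 of the ApoE null arrays, and on replicate 1 it was 8.82. The sum of the 7 smooth muscle markers was 2494 and 2635 against 6128 and 2044. Of the 12 endothelial markers, 6 were above 0 and 6 below in double null cells, from -1.30 to 0.77 on the log2 scale, with 4 higher and 4 lower without overlap and none called. Cdh5 ranged from 11.91 to 12.10 over the 4 arrays, and Vwf read 6.63 in double null replicate 2 and 9.26 to 9.44 on the others. The part of these differences in the lower sterol gene values was not tested. In cultures and in tissue alike, fewer cells of a type and less RNA per cell cannot be told apart.

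**Figure D3:**
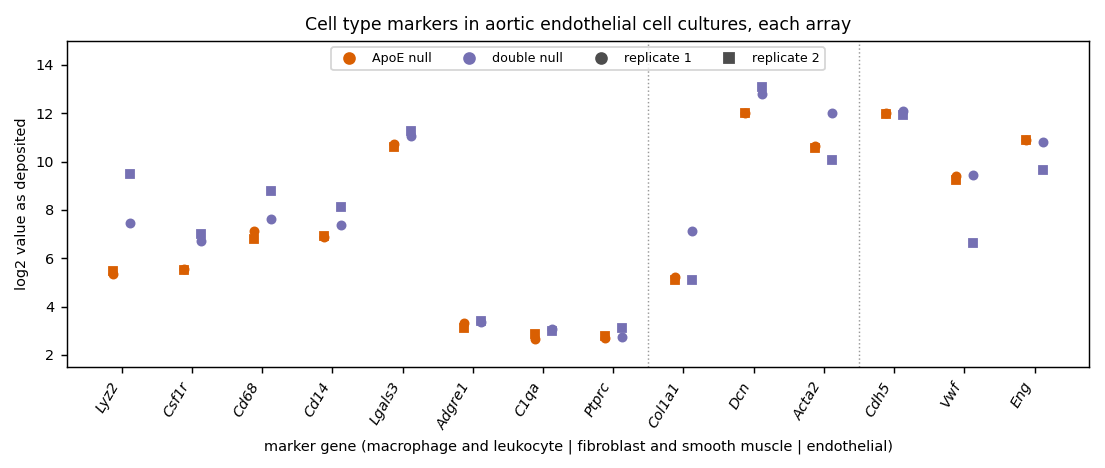
Log2 values of marker genes on the 4 aortic arrays, circles for replicate 1 and squares for replicate 2, with macrophage and leukocyte, fibroblast and smooth muscle, and endothelial genes divided by dotted lines. Lyz2 and Csf1r are higher on both double null arrays, Adgre1, C1qa and Ptprc lie below 4 on every array, and Vwf and Eng are low on double null replicate 2.

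A second list held 31 genes tied to the pathway, which were other targets of SREBPs, proteins of sterol sensing, and exporters and oxidases that respond to high sterol. Of its 22 genes tested in aortic cells, 12 were below 0 and 10 above, with a median of -0.03. These values pool the different kinds of gene in the list, which were not counted apart. At an unadjusted p under 0.05, 3 were higher (2.67% of all genes) and 0 lower, and no gene of the list passed after adjustment. Abcg1, the exporter induced when cells are loaded with sterol, read 6.49 and 6.10 in ApoE null cells and 7.10 and 7.12 in double null cells, a difference of 0.81 (standard error 0.19, limma adjusted p = 0.745). Lpin1, a phosphatidate phosphatase, read 8.41 and 8.36 against 9.22 and 8.998, and Vldlr, a lipoprotein receptor, read 8.32 and 8.28 against 8.70 and 8.90. Acss2, which makes acetyl-CoA from acetate, read 6.42 and 6.35 against 6.06 and 5.43, a difference of -0.63 that was -0.32 without double null replicate 2.

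In liver the synthesis genes lay about evenly above and below WT in Dscr-1 null and double null mice, and most lay above WT in ApoE null mice, where 1 of the 2 arrays set the value. No member passed the threshold in any of the 8 liver comparisons. Of all genes, 0.00678% passed between Dscr-1 null and WT, 0.0136% between ApoE null and WT, 0.0136% between double null and WT, 0% between double null and ApoE null and 0.00678% between double null and Dscr-1 null. For the interaction, for ApoE loss averaged over both Dscr-1 genotypes and for Dscr-1 loss averaged over both ApoE genotypes it was 0%, 0.00678% and 0%. By limma at an unadjusted p under 0.05, Mvd was lower between double null and ApoE null (2.42% of all genes were lower at that level) and for averaged Dscr-1 loss (2.32%), and Sqle was higher between double null and Dscr-1 null (2.84% higher) and for averaged ApoE loss (3.94%). In the other 4 comparisons 0 members reached that level by their brightest probe sets, where 3.82% of all genes did between Dscr-1 null and WT, 5.71% between ApoE null and WT, 5.29% between double null and WT and 4.3% for the interaction. Less bright probe sets reached it for Idi1 between ApoE null and WT and for Sc5d and Mbtps1 between double null and WT. For the interaction those of Idi1 and Hmgcs1 did. Between double null and ApoE null, less bright probe sets of Hsd17b7 (1.05), Idi1 (-1.56) and Sc5d (-1.19) reached it too. A less bright probe set of Mbtps1 did so between double null and Dscr-1 null (-1.17), and another for averaged ApoE loss (-0.98). Comparisons with WT share the WT arrays.

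Against WT, the median difference of the 19 synthesis genes was -0.05 in Dscr-1 null liver, with 9 above 0 (48.8% of all genes). It was 0.43 in ApoE null liver, with 14 above 0 (49.6% of all genes), and 0.04 in double null liver, with 10 above 0 (50.8% of all genes). Between double null and ApoE null liver it was -0.19, with 14 below 0 (49.6% of all genes). The medians over all genes lay between -0.01 and 0.01 in these comparisons. Averaged over the other genotype, ApoE loss gave a median of -0.003 and Dscr-1 loss one of -0.02, and the interaction gave -0.42 with 14 of 19 below 0 (48.4% of all genes).

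The ApoE null value rested on 1 of its arrays. Replicate 2 was the highest of the 8 liver arrays for 13 of 19 synthesis genes, as it was for 10.7% of all genes, and replicate 1 was the lowest for 7 of 19, against 17.8% of all genes. Between them 18 of 19 synthesis genes were higher in replicate 2, by a median of 0.88 on the log2 scale, where 48.5% of all genes were. Without replicate 2 the median against WT was -0.14 with 7 of 19 above 0, and without replicate 1 it was 0.74 with 18 of 19 above 0. The median between double null and ApoE null liver likewise ran from -0.68 without ApoE null replicate 1 to 0.19 without replicate 2, and that of the interaction from -0.88 to 0.035.

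**Figure D4:**
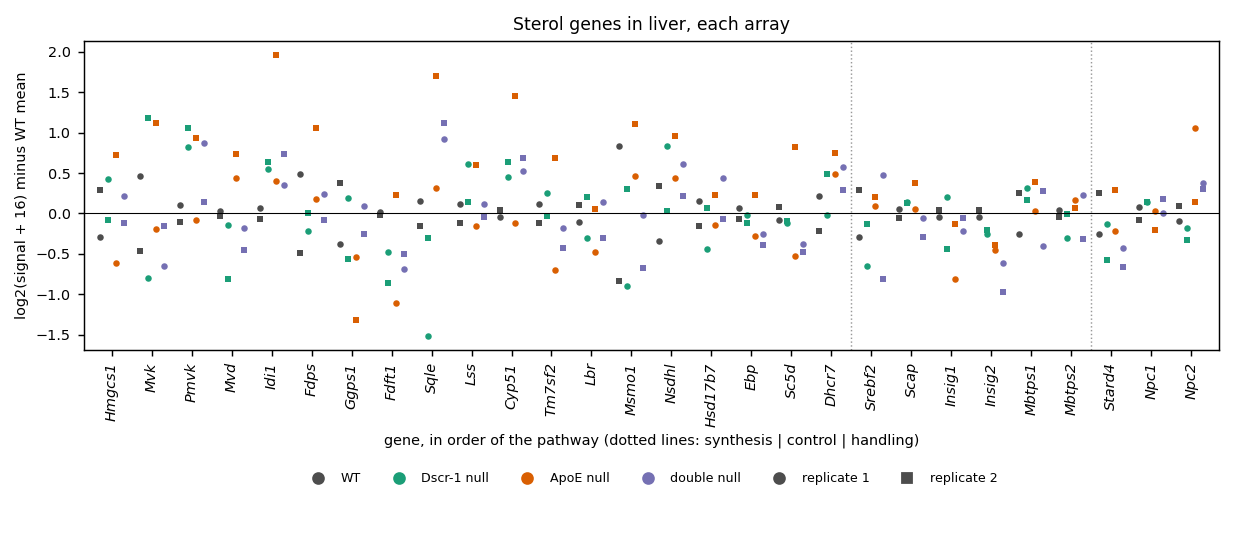
Log2(signal + 16) of each of the 28 members on each of the 8 liver arrays, minus the mean of the WT arrays of that gene, with genes in order of the pathway, circles for replicate 1 and squares for replicate 2. The squares of ApoE null are the highest points for most synthesis genes from Idi1 to Sc5d, and the arrays of the other genotypes scatter around 0.

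Among the genes for which ApoE null replicate 2 was the highest array was Idi1, and among the other 6 was Ggps1, for which it was the lowest. For Idi1 the liver signals were 157 and 142 in WT, 226 and 240 in Dscr-1 null, 202 and 628 in ApoE null livers and 195 and 258 with both genes lost. All 6 mutant arrays lay above both WT arrays, and the share of all genes of which this holds was not counted. The difference between ApoE null and WT was 1.18 (standard error 0.53, limma unadjusted p = 0.0554, adjusted p = 0.786). Without ApoE null replicate 2 it was 0.40, and without replicate 1 it was 1.96.

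Cyp51 gave 101 and 109 in WT, 150 and 172 in Dscr-1 null, 96.1 and 316 in ApoE null livers and 158 and 178 with both genes lost. Its Dscr-1 null and double null arrays lay above the WT arrays, with differences of 0.54 and 0.60 (standard error 0.52 each), and the ApoE null arrays lay on both sides. Sc5d gave 2016 and 2267 in WT, 1968 and 2004 in Dscr-1 null, 1481 and 3796 in ApoE null livers and 1641 and 1536 with both genes lost. These Dscr-1 null and double null arrays lay below WT, by 0.11 and 0.43 on the log2 scale. The 3 probe sets of Sc5d ran from -0.54 to 0.21 between Dscr-1 null and WT, so its direction there depended on the probe set. Between double null and WT they ran from -1.36 to -0.0045, and the 2 of Cyp51 from 0.60 to 0.69. Whether the genes differ was not tested.

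Fdft1 gave 559 and 543 in WT, 391 and 298 in Dscr-1 null, 248 and 650 in ApoE null livers and 337 and 386 with both genes lost. It was lower than WT without overlap by 0.67 in Dscr-1 null and by 0.59 in double null livers, with standard errors of 0.48. Dhcr7 gave 238 and 174 in WT, 202 and 292 in Dscr-1 null, 293 and 351 in ApoE null livers and 310 and 253 with both genes lost. It was higher than WT without overlap, by 0.62 with ApoE lost and by 0.43 with both lost.

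Sqle had the lowest unadjusted p of the members in liver too, in another contrast. Its signals were 49.8 and 37.3 in WT, 4.80 and 32.1 in Dscr-1 null, 57.4 and 176 in ApoE null livers and 95.9 and 112 with both genes lost. Each of the 4 arrays that lacked ApoE lay above each of the other 4 (2.24% of all genes did so), and ApoE loss averaged over Dscr-1 genotypes gave 1.46 (standard error 0.41, 95% confidence interval 0.52 to 2.41, limma unadjusted p = 0.00742, adjusted p = 0.620). The gene was dim, above the array median on 6 of 8 arrays. Between double null and ApoE null livers it differed by 0.01 (standard error 0.58), where in aortic cells it was 0.63 lower, and whether the tissues differ was not tested.

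Mvd gave 43.3 and 40.7 in WT, 36.6 and 17.2 in Dscr-1 null, 62.6 and 80.2 in ApoE null livers and 35.4 and 26.4 with both genes lost. The 4 arrays that lacked Dscr-1 lay below the 4 others, as did those of 1.34% of all genes, and Dscr-1 loss averaged over ApoE genotypes gave -0.68 (standard error 0.27, limma adjusted p = 0.806). Between double null and ApoE null livers the difference was -0.90. The other probe set of Mvd gave 0.003 for averaged Dscr-1 loss and 0.85 between double null and ApoE null, so the direction depended on the probe set. The signals lay near the array medians of 32.2 to 44.7 and above them on 5 of 8 arrays. Pmvk was as dim, at 37.0 and 29.5 in WT, 70.6 and 86.4 in Dscr-1 null, 30.3 and 78.0 in ApoE null livers and 74.0 and 38.2 with both genes lost, and its difference between Dscr-1 null and WT was 0.94 (standard error 0.47).

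**Figure D5:**
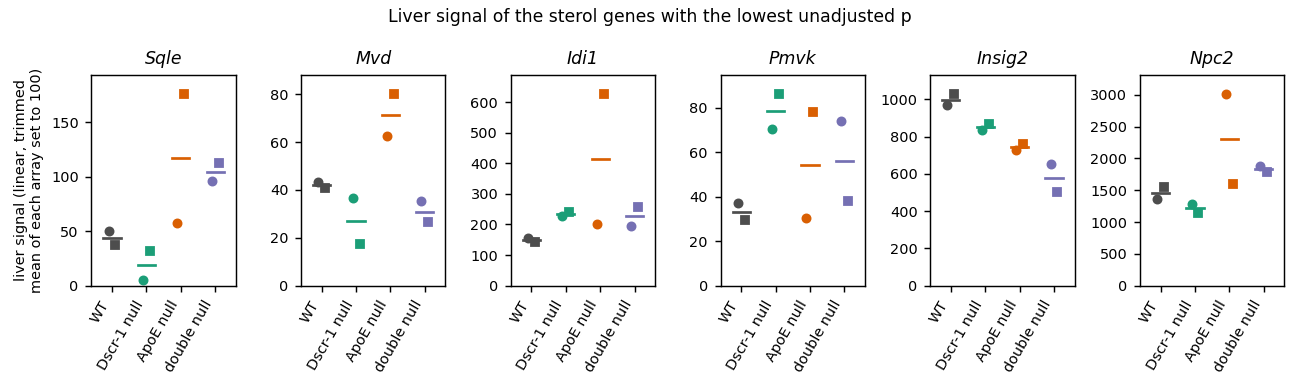
Linear liver signals of the 6 members with the lowest unadjusted p in any liver comparison, by genotype, circles for replicate 1, squares for replicate 2 and bars for the mean of 2 arrays, each panel starting at 0. Sqle is higher on the 4 arrays that lack ApoE, Mvd is lower on the 4 that lack Dscr-1, the Insig2 arrays of the 4 genotypes do not overlap, and Idi1 and Npc2 each have 1 ApoE null array far above the other.

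For members with several probe sets, directions often differed in liver. Hmgcs1 gave 715 and 1082 in WT, 1191 and 827 in Dscr-1 null, 572 and 1461 in ApoE null livers and 1025 and 811 with both genes lost, so that each mutant overlapped WT. Between ApoE null and WT its 5 probe sets ranged from -1.23 to 0.54. Lss gave 155 and 130 in WT, 225 and 159 in Dscr-1 null, 126 and 224 in ApoE null livers and 155 and 138 with both genes lost, with 3 probe sets from -0.65 to 0.22 between ApoE null and WT. Ggps1 gave 71.1 and 130 in WT, 113 and 60.3 in Dscr-1 null, 61.5 and 29.5 in ApoE null livers and 105 and 78.3 with both genes lost, and its difference of -0.93 between ApoE null and WT was the lowest of the synthesis genes. Another of its 3 probe sets gave 0.48. Hsd17b7 gave 439 and 354 in WT, 287 and 415 in Dscr-1 null, 356 and 466 in ApoE null livers and 540 and 375 with both genes lost, with overlap throughout. Between double null and ApoE null its 3 probe sets ran from -0.76 to 1.05.

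The remaining synthesis genes, Mvk, Fdps, Tm7sf2, Lbr, Msmo1, Nsdhl and Ebp, overlapped WT in most genotypes. Fdps gave 211 and 99.0 in WT and 167 and 321 in ApoE null livers, and Msmo1 392 and 112 in WT and 300 and 475 in ApoE null livers, so the WT arrays of each gene lay far apart too. Mvk exceeded the array median on 3 of 8 arrays. Over the 19 synthesis genes, those higher than WT without overlap numbered 4 in Dscr-1 null (16.3% of all genes), 5 with ApoE lost (17.3%) and 5 with both genes lost (19.7%). Those lower without overlap numbered 4 (16.9%), 1 (16.7%) and 5 (18.6%).

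Among the control genes in liver, Insig2 had the most regular order. Its signals were 968 and 1030 in WT, 836 and 866 in Dscr-1 null, 727 and 760 in ApoE null livers and 650 and 502 with both genes lost, so no array of one genotype overlapped another genotype. The share of all genes parted in this way was not counted. The difference between double null and WT was -0.79 (0.579-fold, standard error 0.34, limma unadjusted p = 0.0523, adjusted p = 0.823), and the other probe sets gave -0.37 and -1.13. Steps within this order had 95% confidence intervals that held 0, with -0.23 for Dscr-1 null against WT and -0.37 for double null against ApoE null (standard error 0.34 each). For ApoE loss averaged over Dscr-1 genotypes the difference was -0.49, with all 4 arrays below the other 4 (1.63% of all genes).

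Insig1 gave 1020 and 1078 in WT, 1212 and 771 in Dscr-1 null, 593 and 958 in ApoE null livers and 897 and 1009 with both genes lost. It lay below WT without overlap with ApoE lost (-0.47) and with both genes lost (-0.14). Srebf2 itself gave 93.7 and 149 in WT, 69.6 and 107 in Dscr-1 null, 127 and 138 in ApoE null livers and 171 and 60.9 with both genes lost. The pair of double null mice spanned all other arrays, and between double null and WT the probe sets of Srebf2 gave -0.16 and 0.28.

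Scap gave 561 and 521 in WT, 600 and 591 in Dscr-1 null, 563 and 708 in ApoE null livers and 519 and 440 with both genes lost. The single mutants lay above and the double null arrays below WT, by 0.14, 0.22 and -0.17 on the log2 scale, each smaller than its standard error of 0.35. By their brightest probe sets the proteases of Mbtps1 and Mbtps2 overlapped WT in the double null livers. Mbtps1 gave 192 and 281 in WT, 293 and 263 in Dscr-1 null, 237 and 310 in ApoE null livers and 173 and 284 with both genes lost, a difference of -0.06 between double null and WT. The other probe sets of Mbtps1 gave -1.48 and -1.03 in that comparison, so its size depended on the probe set. All 6 control genes were below 0 between double null and WT, where 49.2% of all genes were, with a median of -0.15, and 3 of them did not overlap (18.6% of all genes were lower in that way). Between double null and ApoE null 5 of 6 were below 0, where 49.6% of all genes were, with a median of -0.29.

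Npc2, the lysosomal sterol carrier, gave 1358 and 1544 in WT, 1279 and 1146 in Dscr-1 null, 3017 and 1595 in ApoE null livers and 1885 and 1786 with both genes lost. The 4 arrays that lacked ApoE lay above the other 4 (2.24% of all genes did so), and ApoE loss averaged over Dscr-1 genotypes gave 0.59 (standard error 0.29, limma adjusted p = 0.813). Without ApoE null replicate 1 it was 0.37, and by another of its 3 probe sets -0.04. Npc1 ranged from 295 to 389 over the 8 arrays, and its Dscr-1 null arrays, at 379 each, lay above WT and ApoE null. Stard4 gave 561 and 808 in WT, 612 and 446 in Dscr-1 null, 576 and 829 in ApoE null livers and 496 and 421 with both genes lost, a difference of -0.54 between double null and WT without overlap.

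Macrophage markers moved with the liver genotypes too. Their summed signal over 16 genes was 5672 and 7843 in WT, 7765 and 5996 in Dscr-1 null, 15651 and 10053 in ApoE null livers and 23262 and 15353 with both genes lost. Between double null and WT 14 of 16 were above 0, with a median of 1.37. Summed hepatocyte markers were 170823 to 199606 on 7 arrays and 275267 on ApoE null replicate 1, the array on which 7 synthesis genes were lowest. Their part in the sterol gene values was not tested.

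Of the second list, 24 genes were tested in liver, and none passed after adjustment. Lpin1 gave 1061 and 437 in WT, 1651 and 1843 in Dscr-1 null, 903 and 687 in ApoE null livers and 1712 and 1460 with both genes lost. The 4 arrays that lacked Dscr-1 lay above the other 4, as did those of 1.5% of all genes, and Dscr-1 loss averaged over ApoE genotypes gave 1.16 (standard error 0.33, limma adjusted p = 0.716). Abcg5, an exporter of sterol into bile, gave 2782 and 2028 in WT, 2428 and 1806 in Dscr-1 null, 1264 and 1368 in ApoE null livers and 1577 and 1714 with both genes lost, and ApoE null differed from WT by -0.85. Abcg1 gave 171 and 96.0 in WT, 163 and 166 in Dscr-1 null, 242 and 201 in ApoE null livers and 272 and 214 with both genes lost, and with ApoE loss averaged over Dscr-1 genotypes it differed by 0.61. Ch25h, the cholesterol 25-hydroxylase, read 36.8 and 23.6 in WT, 50.2 and 36.9 in Dscr-1 null, 11.5 and 2.50 in ApoE null livers and 3.80 and 22.9 with both genes lost, and was dim.

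Set side by side for the comparison that both tissues hold, double null against ApoE null, 14 of 19 synthesis genes lay below 0 in liver and 18 of 19 in aortic cells, with medians of -0.19 and -0.41. The liver value ran from -0.68 to 0.19 with 1 array left out, while the aortic value stayed between -0.48 and -0.31 with each array left out in turn. Srebf2 was -0.31 (standard error 0.50) in liver and -0.61 (standard error 0.26) in aortic cells, and Insig1 was 0.33 in liver and -0.35 in aortic cells. The brightest probe set differed between the tissues for Hmgcs1, Mvd, Ggps1, Srebf2 and Stard4, the scales differ, and the difference between tissues was not tested.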

How the data were processed

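Gene expression was measured on 12 Affymetrix mouse arrays. Liver files hold intensity on a linear scale as deposited, computed by the authors with MAS5 and scaled to an average of 100 per array. Aortic files hold log2 values as deposited, whose normalization no source used here states. Transcriptome Analysis Console is credited to the submitters' processing notes, with no version given.

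The 64 control probe sets were set aside, and of the 45037 left 34945 were annotated to 1 gene, 932 to several and 9160 to none, with 34741 symbols matched by Entrez identifier. An offset of 16 was added to the liver signals before log2. Probe sets brighter than the median of their array on 2 or more arrays of a tissue entered its test, 32005 probe sets in liver and 22927 in aortic cells. Each tissue was fitted on its own in limma 3.58.1 under R 4.3.3 (lmFit, eBayes, a mean per genotype, 4 and 2 residual degrees of freedom), with Benjamini-Hochberg adjustment over all kept probe sets. A gene was read from its brightest probe set annotated to 1 gene, and adjusted p-values are of these probe sets. The code was tested on simulated data. The labels do not say how many mice stand behind an aortic culture, so p-values measure the spread between these arrays, and the small number of arrays limits the precision.

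The members and lists were chosen with earlier results of these data known. Values on every array are given for the members with the 6 lowest unadjusted p in any liver comparison and in aortic cells, those that did not overlap WT in at least 2 liver comparisons, Srebf2, and those whose probe sets disagreed, and for the 4 genes of the second list with the lowest p in each tissue. Of that list of 31 genes, 24 had a probe set. Same-numbered aortic arrays share a run by their source names, and their deviations from the genotype mean correlated at 0.297 across probe sets, and a fit that blocked on the run changed no call.

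The labels give a high-fat diet for the liver mice where the study's results give normal chow for the arrays, and the design text of the series names Dscr-1 null as the aortic control where titles and genotype labels name ApoE null. The titles and labels were used. Alternatives were other offsets, filters, scalings, array weights, variance models, probe set rules, the replicate block, a Student's t-test and leaving out each array.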

Additional observations from a re-analysis of the deposited data

Results flagged for a closer look

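Scap, the escort of SREBP2, had a difference of one sign on 1 background and of the other sign on the other in liver. Loss of Dscr-1 gave a log2 difference of 0.135 in mice with ApoE (Dscr-1 null against WT) and of -0.39 in mice without it (double null against ApoE null). The limma unadjusted p was 0.707 and 0.294. The arrays of the groups compared did not overlap in either case, as for 2400 (higher) and 2305 (lower) of all 14758 genes. Loss of ApoE gave 0.217 in mice with Dscr-1 and -0.308 in mice without it (limma unadjusted p = 0.549 and 0.401). Again there was no overlap, as for 2548 (higher) and 2405 (lower) of all 14758 genes. The nearest ApoE null and WT arrays were parted only by signals of 562.6 and 561.3. These are the same 8 arrays read along both factors. The interaction was -0.53 and did not pass (limma, adjusted p = 1).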

How the results depend on the processing

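No member passed after adjustment by limma under any alternative with all arrays kept. Under settings with all arrays kept the liver medians of the synthesis genes changed sign between double null and WT (-0.08 to 0.04), between Dscr-1 null and WT (-0.06 to 0.03) and for averaged ApoE loss (-0.004 to 0.09). A Student's t-test was also run on the pairs of genotypes compared. The study's methods name it for 2 groups, with ANOVA for more, and state no such test for the arrays. At an unadjusted threshold it counted 4 of 28 members between Dscr-1 null and WT (5.43% of all genes), 1 between ApoE null and WT (5.62%) and 4 between double null and WT (7.57%) in liver. It counted 1 between double null and ApoE null (5.33%) and 2 between double null and Dscr-1 null (6.23%) there, and 3 in aortic cells (3.59%). Of 28 members, 4, 3, 2 and 1 are 14.3%, 10.7%, 7.14% and 3.57%. After Benjamini-Hochberg adjustment it counted 0 in each.

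In aortic cells the median of the synthesis genes was -0.29 in run 1 alone and -0.50 in run 2 alone, and -0.48 to -0.31 with each array left out in turn. There the number of members passed ran from 0 to 7, synthesis genes lower from 17 to 18 and lower without overlap from 15 to 17. In liver, leaving out 1 array moved the median from -0.14 to 0.74 between ApoE null and WT (7 to 18 genes above 0), from -0.68 to 0.19 between double null and ApoE null, from -0.88 to 0.035 for the interaction, from -0.31 to 0.09 for averaged Dscr-1 loss, from -0.22 to 0.30 for averaged ApoE loss, from -0.11 to 0.15 between double null and WT, from -0.22 to 0.04 between double null and Dscr-1 null and from -0.05 to 0.09 between Dscr-1 null and WT. No liver member passed in these fits. The mean of a gene's probe sets in place of the brightest gave a median of 0.20 between ApoE null and WT, with 10 synthesis genes above 0. Lpin1 passed for averaged Dscr-1 loss with a trended, robust variance (limma, adjusted p = 0.00128). The cause of these shifts was not tested.

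A replicate block gave 0 members in each of the 9 comparisons and left each median as it was, since every number occurs once per genotype. Liver arrays of one number had deviations that correlated at -0.00155 to 0.0293, so no deviation shared by number was seen. Such values cannot tell whether the numbers pair mice. Array weights, added for aortic cells after the data were seen, gave 0 members as well. Signals near the array median limit Sqle, Mvd, Pmvk and Mvk in liver.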
